A study of Mus musculus with 24 samples.

Results

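The genes of methylation of lysine 9 on histone H3 (H3K9), those that write it, recruit its enzymes or read it, were described across 2 germ cell fractions and 3 Argonaute genotypes of the mouse testis. They were taken by symbol from the deposited table of raw gene counts, in which 10 of 55536 genes matched. The 10 members were the methyltransferases Setdb1, Suv39h2, Ehmt1 (GLP) and Ehmt2 (G9a), the SETDB1-like protein Setdb2, the SETDB1 cofactor Atf7ip, the corepressor Trim28 and the 3 heterochromatin protein 1 (HP1) genes Cbx1 (HP1beta), Cbx3 (HP1gamma) and Cbx5 (HP1alpha). RNA was sequenced in bulk from enriched pachytene/diplotene spermatocytes and from enriched round spermatids of male C57BL/6J mice aged 10 to 15 weeks. The genotypes were Ago413+/+ (wild-type), Ago413+/- (heterozygous) and Ago413-/- (null), where Ago413 is a constitutive deletion on chromosome 4 of all of Ago1 and parts of Ago3 and Ago4. It is present in every cell of the animal, so it is not restricted to germ cells, and shortened transcripts of Ago3 and Ago4 can still be made. Each library came from the combined testes of 2 to 5 mice, and per the labels fractions with over 70% of the wanted cells were pooled. The study's methods give a higher purity for round spermatids than for spermatocytes. The numbered libraries of a group were treated as replicates, and p-values measure the spread between such pools. Of 24 libraries, 3 that the labels name as outliers were left out, so that spermatocytes had 4 libraries of the wild type and 3 each of the heterozygote and the null, and round spermatids 3 of the wild type and 4 each of the others.

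Methyl groups on H3K9 mark silent chromatin. SETDB1 and the SUV39H enzymes make the trimethylated form that HP1 proteins bind through their chromodomain, while the G9a/GLP pair makes the mono- and dimethylated forms in euchromatin. TRIM28, brought to DNA by zinc finger proteins with a KRAB domain, recruits SETDB1, which ATF7IP stabilises in the nucleus. In male meiosis, SETDB1 and H3K9 trimethylation take part in silencing the unpaired X and Y chromosomes, SUV39H2 is the SUV39H enzyme most typical of the testis, and G9a is needed for germ cells to pass through early meiotic prophase. The study asked what the loss of Argonaute proteins does to sex chromosome silencing and to the timing of germ cell gene expression.

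Library totals ran from 12825105 to 29749058 counts, and levels are given as CPM (read counts divided by a library's scaled total) after TMM scaling of the 21 libraries together. Ago1 had 0 counts in all 3 null spermatocyte and all 4 null round spermatid libraries, which allows up to 0.158 and 0.162 CPM by counting error alone, against 3.33 ± 0.63 CPM (SD, n = 4) in wild-type spermatocytes and 3.51 ± 0.87 CPM (SD, n = 3) in wild-type round spermatids. Ago3, of which the deletion leaves a part, was called higher in the null, with 64.8 ± 24.5 CPM (SD, n = 3) against 7.02 ± 2.89 CPM (SD, n = 4) in spermatocytes (9.36-fold, adjusted p = 0.00826 by edgeR) and a 6.42-fold difference in round spermatids (adjusted p = 0.0108 by edgeR). Ago4, also partly deleted, had log2 fold changes of -1.36 and -0.63, not called by edgeR (adjusted p = 0.0608 and 0.0884) but called lower by DESeq2 (adjusted p = 0.00874 and 0.0177). These values are of RNA only. The paper describes premature stop codons in the remaining Ago3 and Ago4 transcripts. It also reports that western blots of null testes had lost AGO1, AGO3 and AGO4 protein. The cell type markers followed the fractions in wild-type animals: 10 spermatocyte markers summed to between 912 and 1810 CPM in spermatocytes and between 520 and 670 CPM in round spermatids, and 7 of the 10 were called lower in round spermatids. The 8 round spermatid markers summed to between 1500 and 2480 CPM in wild-type spermatocytes and between 2790 and 3270 CPM in wild-type round spermatids, so their transcripts were abundant in both fractions. Markers of elongating spermatids summed to between 3380 and 8130 CPM and between 21700 and 30800 CPM in the same libraries. Of the other cell types, macrophage markers summed to between 14.1 and 20.4 CPM in wild-type spermatocytes and between 39.9 and 58.0 CPM in wild-type round spermatids, with 7 of 10 called higher in round spermatids by edgeR and 8 by DESeq2. Both tools also called 3 of 8 spermatogonial and 2 of 4 peritubular myoid markers higher there, and all 3 erythrocyte markers tested had higher values, with 1 called by edgeR and 2 by DESeq2. The part of these cells in the fraction differences of the members was not tested. Sertoli cell markers summed to between 75.2 and 385 CPM over the 6 groups, macrophage markers to between 11.3 and 92.5 CPM and Leydig cell markers to between 3.02 and 22.8 CPM. In bulk RNA, fewer cells of a type and less RNA per cell cannot be told apart.

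All 10 members passed the low-count filter. In GENCODE M21 (GRCm38) the 3 HP1 genes are Cbx1 (ENSMUSG00000018666, chromosome 11, 96789127 to 96808640), Cbx3 (ENSMUSG00000029836, chromosome 6, 51470360 to 51483704) and Cbx5 (ENSMUSG00000009575, chromosome 15, 103191544 to 103239816). The methyltransferases are Setdb1 (ENSMUSG00000015697, chromosome 3, 95323525 to 95357202), Suv39h2 (ENSMUSG00000026646, chromosome 2, 3455815 to 3475031), Ehmt1 (ENSMUSG00000036893, chromosome 2, 24789928 to 24919614) and Ehmt2 (ENSMUSG00000013787, chromosome 17, 34898469 to 34914052). Setdb2 (ENSMUSG00000071350) is on chromosome 14, Atf7ip (ENSMUSG00000030213) on chromosome 6 and Trim28 (ENSMUSG00000005566) on chromosome 7, so none of the 10 is X-linked or on chromosome 4, where the deletion lies. Most members shared few 31-base words with other genes. The exceptions were Setdb1, where 12.9% of those in its transcripts occurred in transcripts of another gene (the lincRNA Gm4349 among them, at most 1.04 CPM in any library), Cbx3, where 10.0% did (its pseudogenes among them), and Suv39h2, where 6.85% did. The words that Suv39h2 shares are those of Dclre1c and Gm13184, which overlap it on the opposite strand. Dclre1c reached at most 6.66 CPM and Gm13184 10.4 CPM, and the strand setting of the counting is not given in the sources used here.

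The promoters of 3 members are shown because the differences below turn on them: Suv39h2, the methyltransferase with the lowest p in null spermatocytes, and Cbx1 and Cbx5, which were lower in round spermatids than in spermatocytes. Each runs from 250 bases before to 50 bases after the RefSeq start (GRCm38.p6), in the direction of the gene. Capitals in Suv39h2 (chr2:3474937-3475236, minus strand) mark the palindrome TGACGTCA, the full cAMP response element that factors of the CREB and CREM family bind. Capitals in Cbx1 (chr11:96788885-96789184, plus strand) and Cbx5 (chr15:103239803-103240102, minus strand) mark CNGTT on either strand, the short core bound by MYB proteins, of which MYBL1 (A-MYB) drives many genes of pachytene spermatocytes.
Suv39h2: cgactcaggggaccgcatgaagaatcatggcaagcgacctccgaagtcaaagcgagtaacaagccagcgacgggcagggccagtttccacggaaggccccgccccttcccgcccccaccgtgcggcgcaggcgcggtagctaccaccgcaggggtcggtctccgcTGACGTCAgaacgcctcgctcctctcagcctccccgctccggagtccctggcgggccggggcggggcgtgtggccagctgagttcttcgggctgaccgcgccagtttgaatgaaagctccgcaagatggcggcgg
Cbx1: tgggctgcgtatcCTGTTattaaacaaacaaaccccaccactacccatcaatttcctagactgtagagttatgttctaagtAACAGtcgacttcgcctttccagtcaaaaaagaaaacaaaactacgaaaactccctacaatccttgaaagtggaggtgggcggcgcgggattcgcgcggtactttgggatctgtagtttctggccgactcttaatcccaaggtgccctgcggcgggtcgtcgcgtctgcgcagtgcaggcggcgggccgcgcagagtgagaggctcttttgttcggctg
Cbx5: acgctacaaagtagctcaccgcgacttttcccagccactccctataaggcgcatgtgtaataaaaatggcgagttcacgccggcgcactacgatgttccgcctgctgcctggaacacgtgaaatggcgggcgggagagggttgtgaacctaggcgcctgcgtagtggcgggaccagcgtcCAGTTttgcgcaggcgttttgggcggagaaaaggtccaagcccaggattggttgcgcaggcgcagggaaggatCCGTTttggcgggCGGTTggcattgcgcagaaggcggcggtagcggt
Both motifs were searched on both strands. The full element TGACGTCA was found in 1.79% of 32851 promoters of that length and in 1 of the 13 promoters listed for the 10 members, that of Suv39h2, where it begins at position -85. The core CNGTT is so short that it occurred in 80.3% of all promoters and in 11 of the 13, with 2 matches in Cbx1 and 3 in the Cbx5 promoter shown. Suv39h2 also had 2 matches, which are left in small letters above. The X-box half-site GTTGCC was present in 12.5% of all promoters and in those of Trim28 and of a second Cbx5 start, and GCGCATGC, the core bound by NRF1, in 2.71% of all and in none of the 13. A match describes the letters of these windows only.

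**Figure D1:**
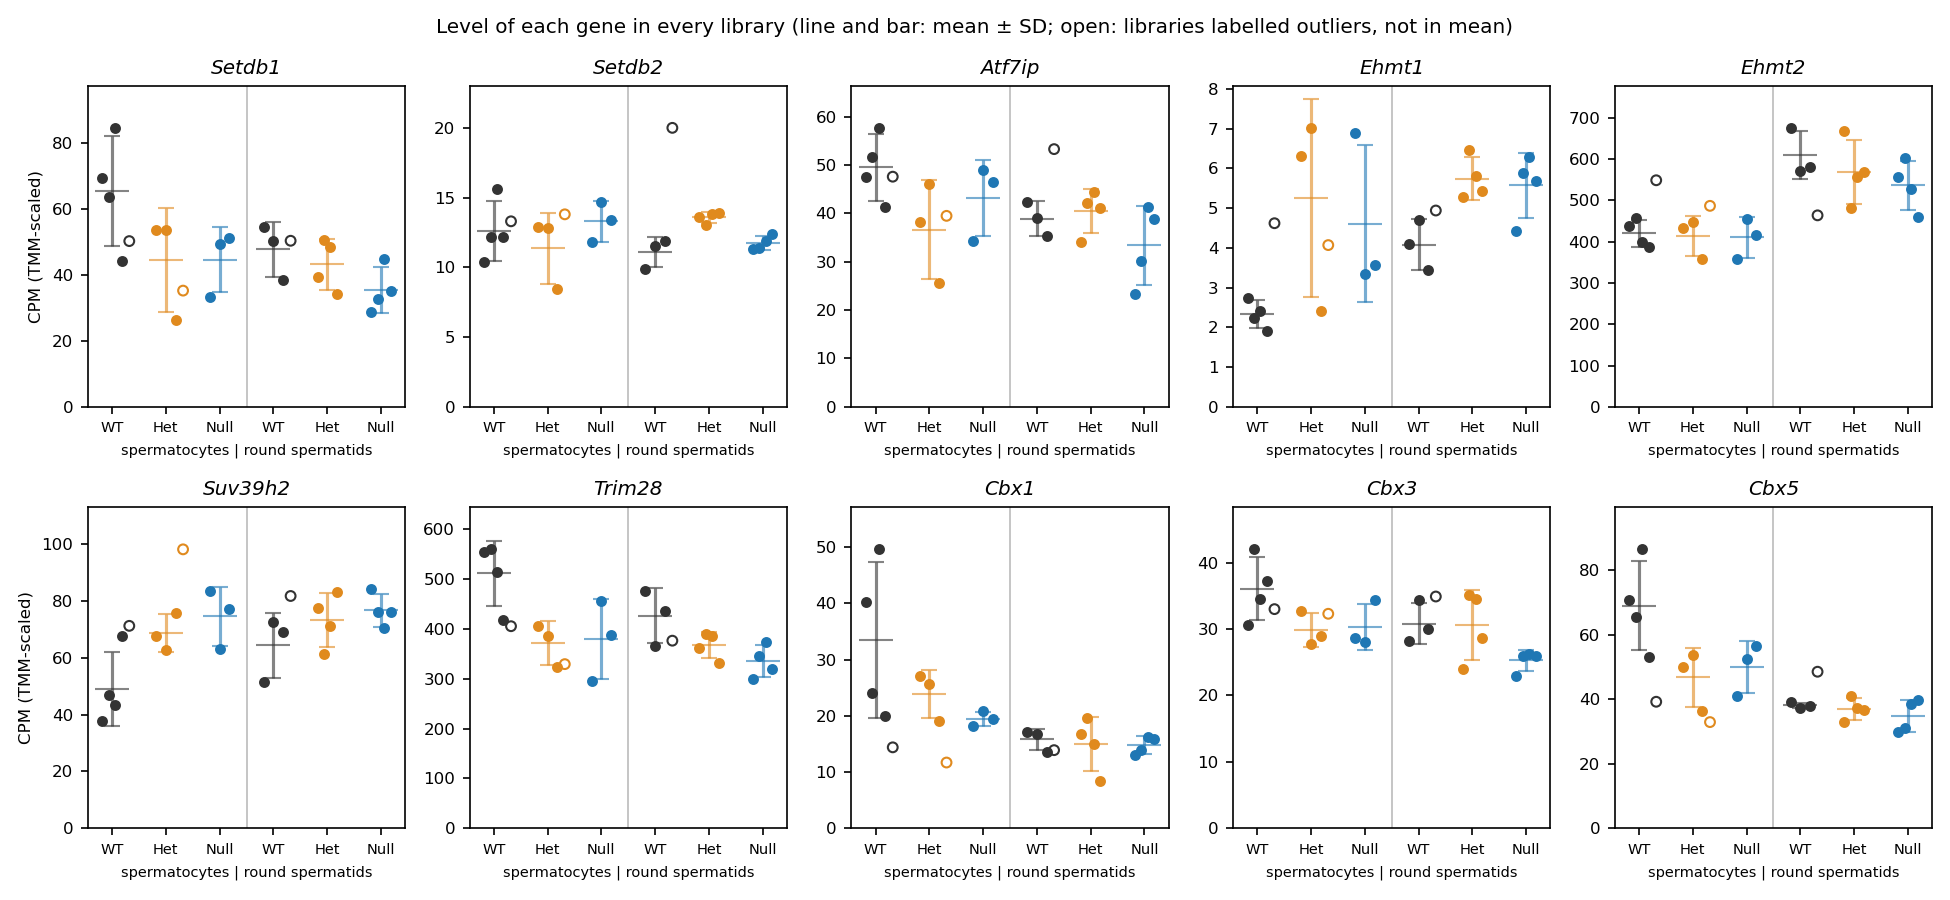
CPM of each member (y axis, linear from 0) in every library of the 3 genotypes, spermatocytes left and round spermatids right of the grey line, where filled points are compared libraries with mean and SD and open points are the 3 libraries labelled outliers. Wild-type spermatocytes spread widely for Cbx1 (19.9 to 49.6 CPM) and Suv39h2 (37.9 to 67.5 CPM), and Ehmt1 reached at most 7.02 CPM in any.

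Levels were set side by side between genes only after division by length. In wild-type spermatocytes the corepressor Trim28 led with 123 CPM per kb of merged exons, followed by Ehmt2 with 76.6 CPM per kb, and neither overlapped its neighbour in the order. Suv39h2 (11.1), Setdb1 (9.53), Cbx1 (7.83), Cbx5 (7.65) and Cbx3 (6.02 CPM per kb) came next, and each overlapped its neighbour over the 4 libraries. Setdb2 (3.11), Atf7ip (2.39) and Ehmt1 (0.287 CPM per kb) were lowest. In wild-type round spermatids Ehmt2 (111 CPM per kb) stood above Trim28 (102 CPM per kb), but their libraries overlapped. Ehmt1 was last there too, with 0.503 CPM per kb. The genes of the G9a/GLP pair, whose proteins work as a heterodimer, were thus far apart: Ehmt2 had 270 ± 36.1 times (SD, n = 4) the level of Ehmt1 per kb in wild-type spermatocytes and 224 ± 39.0 times (SD, n = 3) in wild-type round spermatids. Trim28 had 13.3 ± 2.42 times (SD, n = 4) the level of Setdb1 and Setdb1 3.95 ± 0.58 times (SD, n = 4) that of Atf7ip in wild-type spermatocytes. Dividing by the longest protein-coding transcript in place of the merged exons kept Trim28 and Ehmt2 at the top and Ehmt1 at the bottom, but moved Cbx3 up to rank 3 in both fractions (19.1 and 16.3 CPM per kb).

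The comparison of round spermatids with spermatocytes asked how these genes differ between meiotic and postmeiotic cells. In wild-type animals 2 HP1 genes were lower in round spermatids, Cbx1 and Cbx5, and both genes of the G9a/GLP pair were higher. These were 4 of the 10 members, against a background of 24.2% of 20404 genes called in this comparison (12.7% higher and 11.4% lower). Calls needed both an adjusted p by edgeR under 0.05 and a log2 fold change beyond 0.5 in either direction. DESeq2 called the same 4 genes, against 26.7% of all genes. The median log2 fold change of the members was -0.24, beside 0.02 over all genes tested. Levels in all libraries of the 2 fractions did not overlap for these 4 members, which was so for 33.7% of all genes.

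Cbx5, which encodes HP1alpha, had 70.6, 65.6, 86.4 and 53.1 CPM in wild-type spermatocyte replicates 1, 2, 4 and 5, and 39.0, 37.4 and 37.8 CPM in wild-type round spermatid replicates 1, 2 and 4. All round spermatid libraries lay below all spermatocyte libraries, and they were close to each other. The log2 fold change was -0.86 ± 0.17 SE (adjusted p = 0.00139 by edgeR), or 0.552-fold. Cbx1, which encodes HP1beta, had 40.2, 24.1, 49.6 and 19.9 CPM in the same spermatocyte libraries and 17.1, 16.7 and 13.6 CPM in the round spermatid libraries. Its spermatocyte libraries split into 2 high and 2 low ones, the lower of which came near the round spermatids. Its log2 fold change was -1.08 ± 0.27 SE (adjusted p = 0.00573 by edgeR). Cbx3, encoding HP1gamma, which is also found at active genes, was not called, with 36.1 ± 4.79 CPM (SD, n = 4) in spermatocytes against 30.8 ± 3.14 CPM (SD, n = 3) in round spermatids, a log2 fold change of -0.23 with a 95% interval from -0.52 to 0.07.

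Ehmt2 had 437, 458, 399 and 388 CPM in wild-type spermatocytes and 676, 571 and 581 CPM in wild-type round spermatids. The fractions were apart in all libraries, by a log2 fold change of 0.53 ± 0.14 SE (adjusted p = 0.00595 by edgeR), close to the fold threshold. The call was lost without spermatocyte replicate 5 (0.50) and without round spermatid replicate 1 (0.45, adjusted p = 0.0385 by edgeR, over 13 alternatives this p ran from 0.00128 to 0.0899). Its partner Ehmt1 had 2.75, 2.23, 2.42 and 1.91 CPM in spermatocytes and 4.09, 4.71 and 3.44 CPM in round spermatids, a log2 fold change of 0.82 ± 0.30 SE (adjusted p = 0.0492 by edgeR). This call lay at the threshold and was lost when any of the 7 wild-type libraries was left out (adjusted p by edgeR from 0.0578 to 0.171), while the log2 fold change stayed between 0.70 and 0.92. With consecutive library numbers as a replicate block it was 0.79 (adjusted p = 0.102 by edgeR), which left 3 of the 4 members called.

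The other members did not pass the test between wild-type fractions. Suv39h2 was 0.40 ± 0.17 higher (log2, SE, adjusted p = 0.0977 by edgeR) in round spermatids. Without spermatocyte replicate 5 it was called (0.59, adjusted p = 0.00663 by edgeR), as it was without round spermatid replicate 1 (0.53, adjusted p = 0.0469 by edgeR, over 13 alternatives from 0.00663 to 0.312). Setdb1, its cofactor Atf7ip and Trim28 had log2 fold changes of -0.45, -0.35 and -0.27, with adjusted p by edgeR of 0.183, 0.219 and 0.202. Setdb2, a SET domain protein without a settled role in the testis, had 12.6 ± 2.17 CPM (SD, n = 4) in spermatocytes against 11.1 ± 1.10 CPM (SD, n = 3) in round spermatids. When the 3 libraries labelled outliers were added back, edgeR called 0 of the 10 members, but also 0 of all 20542 genes tested (0%), with 29% of them at an unadjusted p under 0.05. Cbx5 then had a log2 fold change of -0.63 (adjusted p = 0.063 by edgeR) and Cbx1 one of -0.95 (adjusted p = 0.0636 by edgeR).

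**Figure D2:**
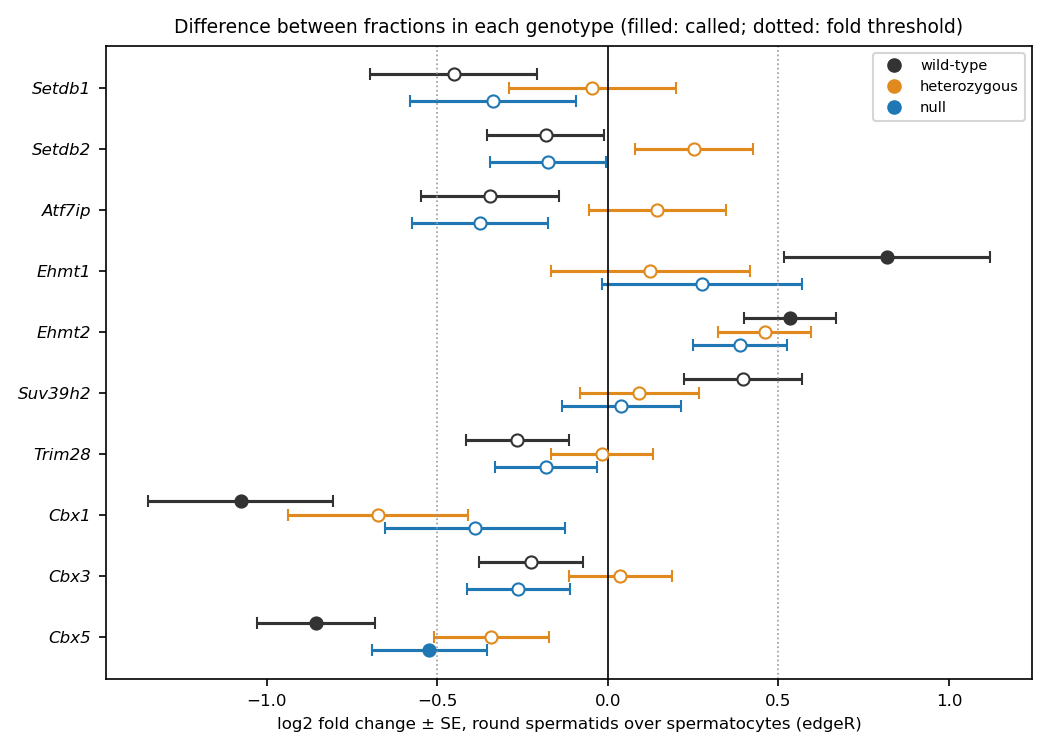
Log2 fold change of round spermatids over spermatocytes with its SE (x axis) for each member in wild-type, heterozygous and null animals; filled points are called by edgeR and dotted lines mark the fold threshold. Cbx1 and Cbx5 lie left of 0 and Ehmt2 right of 0 in all 3 genotypes, and the wild-type point is farthest from 0 for each of these 3 genes.

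In heterozygous and null animals fewer members were called. Among heterozygous libraries edgeR and DESeq2 called 0 of 10, against 8.89% of all genes by edgeR and 2286 of 20404 genes by DESeq2. At an unadjusted p under 0.05 there were 2 members by edgeR and 3 by DESeq2, against 23.6% and 25.1% of all genes. Ehmt2 was higher by 0.46 ± 0.14 (log2, SE, adjusted p = 0.0369 by edgeR), which is under the fold threshold. Among null libraries 1 of 10 was called by edgeR and by DESeq2, against 17.1% of all genes by edgeR and 4058 of 20404 genes by DESeq2. This was Cbx5, with 41.1, 52.5 and 56.5 CPM in null spermatocytes and 29.9, 31.1, 38.5 and 39.7 CPM in null round spermatids, without overlap. There was no overlap either for Cbx1 and Cbx3, lower in null round spermatids, and Ehmt2, higher, which makes 4 of 10 members against 29.7% of all genes. The Cbx5 log2 fold change was -0.52 ± 0.17 SE (adjusted p = 0.035 by edgeR), and the call was lost without null spermatocyte replicate 2 or 3 or null round spermatid replicate 1 or 2 (values from -0.43 to -0.49). It was lost too with consecutive library numbers as a replicate block (-0.47, adjusted p = 0.0827 by edgeR). Cbx1 had a log2 fold change of -0.67 in heterozygous and -0.39 in null animals, with adjusted p by edgeR of 0.115 and 0.324. The other log2 fold changes in heterozygotes were -0.34 for Cbx5, 0.04 for Cbx3, -0.02 for Trim28, -0.05 for Setdb1, 0.15 for Atf7ip, 0.25 for Setdb2, 0.09 for Suv39h2 and 0.13 for Ehmt1. In null animals they were -0.26 for Cbx3, -0.18 for Trim28, -0.34 for Setdb1, -0.37 for Atf7ip, -0.18 for Setdb2, 0.04 for Suv39h2, 0.28 for Ehmt1 and 0.39 for Ehmt2. Between null fractions all 7 Sertoli cell markers had higher values in round spermatids, with 2 called by either tool, and both tools called 7 of 10 macrophage markers and 3 of 3 erythrocyte markers higher. The Sertoli sums ran from 80.4 to 141 CPM in null spermatocytes and from 200 to 363 CPM in null round spermatids, without overlap. Between heterozygous fractions both tools called 7 of 10 macrophage and 2 of 3 erythrocyte markers higher, and Leydig cell markers lower (1 of 5 by edgeR and 2 by DESeq2). The part of these cells in the members' values was not tested. The difference in the null effect between fractions, which tests whether these fraction differences changed with the genotype, was called by edgeR and by DESeq2 for 0 of the 10 members, with 0 at an unadjusted p under 0.05 by either tool (5.95% of all genes by edgeR), and for 0% of all genes. The largest such difference among members was that of Cbx1 (0.69 ± 0.38 on the log2 scale, SE, adjusted p = 0.807 by edgeR). It was -0.54 for Ehmt1, -0.36 for Suv39h2, 0.33 for Cbx5, -0.15 for Ehmt2, 0.12 for Setdb1, 0.08 for Trim28, -0.04 for Cbx3, -0.03 for Atf7ip and 0.01 for Setdb2.

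The 3 HP1 genes were compared as shares of their summed CPM per kb. Within wild-type spermatocytes Cbx1 made up 35.3 ± 8.41%, Cbx3 29.1 ± 8.15% and Cbx5 35.6 ± 0.69% (SD, n = 4). Within wild-type round spermatids the shares were 28.3 ± 2.51%, 39.3 ± 2.88% and 32.4 ± 2.01% (SD, n = 3). The Cbx5 share was from 35.1% to 36.6% in spermatocytes and from 30.1% to 33.9% in round spermatids, with no overlap. The Cbx3 share ran from 21.4% to 37.1% and from 36.1% to 41.5%, which overlapped, and so did the Cbx1 share. Which paralog leads depended on the length used: with the longest protein-coding transcript Cbx3 had 43.4% in wild-type spermatocytes and 55.6% in round spermatids, and Cbx5 17.2% and 14.8%. The CPM of Cbx3 itself was not called different between the fractions, while those of Cbx1 and Cbx5 in the same sum were called lower in round spermatids. In null spermatocytes the shares were 30.1 ± 2.33% for Cbx1, 33.4 ± 2.54% for Cbx3 and 36.5 ± 2.49% for Cbx5 (SD, n = 3), all of which overlapped the wild type.

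**Figure D3:**
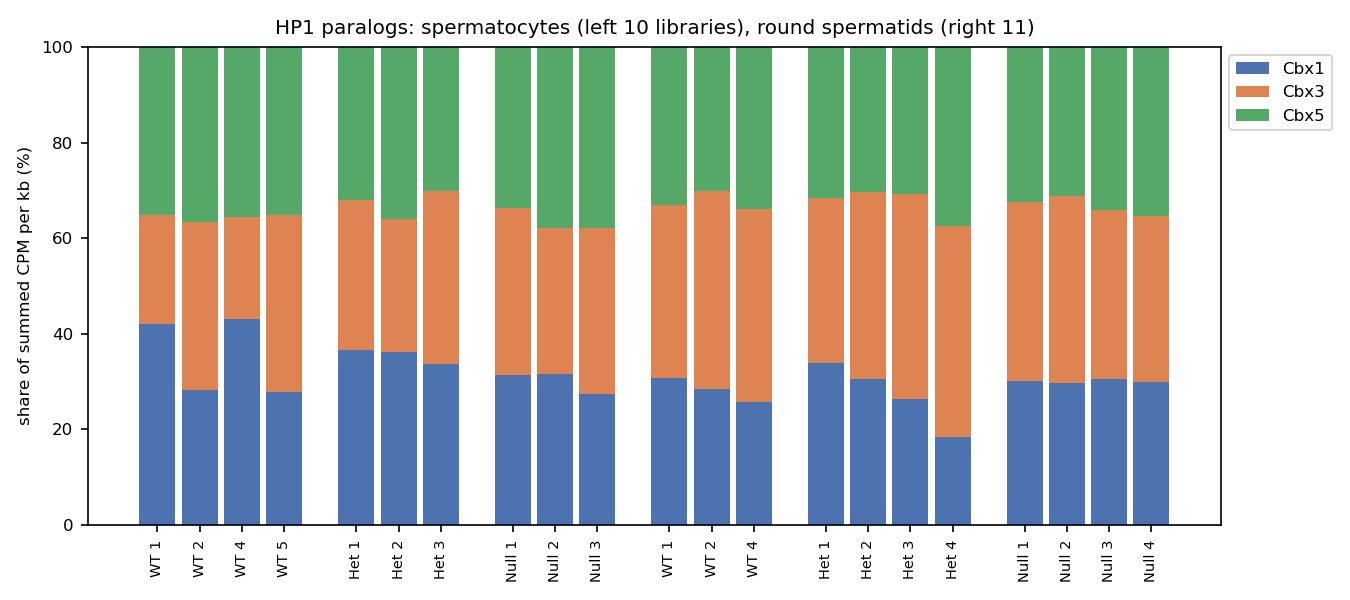
Share of each HP1 paralog (Cbx1, Cbx3, Cbx5) in their summed CPM per kb of merged exons (y axis, percent), 1 bar per library, grouped by fraction and genotype. Wild-type spermatocytes 1 and 4 have the highest Cbx1 shares (up to 43.0%), and wild-type round spermatids have 36.1% to 41.5% Cbx3.

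The comparison of null with wild-type spermatocytes asked whether loss of the Argonaute genes goes with a change in these chromatin genes. By edgeR 0 of 10 members were called, against 0.0411% of 19450 genes. At an unadjusted p under 0.05 there were 5 members, against 30.4% of all genes. DESeq2 called 1 of 10, Suv39h2, against 15.2% of all genes. In the null 3 members had higher means and 7 lower, and the median log2 fold change was -0.20 beside -0.03 over all genes. By edgeR the members with an unadjusted p under 0.05 were Suv39h2 and Ehmt1 (higher) and Cbx1, Cbx5 and Trim28 (lower). By DESeq2 they were Suv39h2, Ehmt1 and Cbx1 only, against 32.3% of all genes.

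Suv39h2 had 83.4, 63.2 and 77.1 CPM in null spermatocyte replicates 1, 2 and 3 and 37.9, 46.9, 43.2 and 67.5 CPM in wild-type replicates 1, 2, 4 and 5. Replicate 5 of the wild type lay inside the null range and the other wild-type libraries below it. The log2 fold change was 0.63 ± 0.21 SE (adjusted p = 0.0779 by edgeR), and DESeq2 gave 0.65 with an adjusted p of 0.0358. Cbx1 had 18.2, 20.8 and 19.4 CPM in the null against 40.2, 24.1, 49.6 and 19.9 CPM in the wild type, where again replicate 5 lay inside the null range. Its log2 fold change was -0.76 ± 0.28 SE (adjusted p = 0.0993 by edgeR). Without wild-type replicate 5 both were called, Suv39h2 at 0.84 (adjusted p = 0.00801 by edgeR) and Cbx1 at -0.93 (adjusted p = 0.0206 by edgeR), but in that fit 23.6% of all 19181 genes tested were called. Over 14 alternatives the adjusted p ran from 0.00801 to 0.267 for Suv39h2 and from 0.0206 to 0.394 for Cbx1.

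Ehmt1 was the only member whose null and wild-type spermatocyte libraries did not overlap, as was the case for 27.1% of all genes. It had 6.89, 3.35 and 3.58 CPM in the null and 1.91 to 2.75 CPM in the wild type. The excess was large in null replicate 1 and smaller in the other two. The log2 fold change was 1.01 ± 0.38 SE (adjusted p = 0.104 by edgeR), and 0.56 without null replicate 1. Its partner Ehmt2 had 410 ± 48.8 CPM in the null and 421 ± 32.8 CPM in the wild type (SD), with a 95% interval of the log2 fold change from -0.30 to 0.26.

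Trim28 had 296, 456 and 388 CPM in the null and 554, 559, 514 and 418 CPM in the wild type, a log2 fold change of -0.41 ± 0.17 SE (adjusted p = 0.124 by edgeR). Cbx5 had 41.1, 52.5 and 56.5 CPM against 70.6, 65.6, 86.4 and 53.1 CPM, a log2 fold change of -0.44 ± 0.20 SE (adjusted p = 0.157 by edgeR). For both genes the wild-type replicate 5 was the lowest of its group and overlapped the null. Setdb1, the methyltransferase most closely tied to sex chromosome silencing, had 33.2, 49.4 and 51.0 CPM in the null and 69.3, 63.5, 84.5 and 44.1 CPM in the wild type (log2 fold change -0.53, 95% interval from -1.06 to 0.00, adjusted p = 0.202 by edgeR). Atf7ip, Cbx3 and Setdb2 had log2 fold changes of -0.17, -0.23 and 0.10, with adjusted p by edgeR of 0.591, 0.372 and 0.776.

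The marker levels of the cells differed between these libraries too. The 10 spermatocyte markers summed to 1420, 1070, 1810 and 912 CPM in wild-type spermatocyte replicates 1, 2, 4 and 5 and to 555, 900 and 874 CPM in null replicates 1, 2 and 3. The 8 round spermatid markers summed to 1740, 1880, 1500 and 2480 CPM in the wild type and to between 2640 and 2930 CPM in the null. Wild-type replicate 5 was thus the wild-type library with the lowest spermatocyte and the highest round spermatid marker level, and its spermatocyte sum was close to that of null replicates 2 and 3. By edgeR 0 of the 10 spermatocyte markers were called, with 7 at an unadjusted p under 0.05 and 9 lower in the null, and DESeq2 called 5 lower. All 8 round spermatid markers had higher values in the null, 0 called by edgeR (7 at an unadjusted p under 0.05) and 1 by DESeq2. Macrophage markers summed to between 13.6 and 26.7 CPM in the null and 14.1 and 20.4 CPM in the wild type, and of the 6 tested 4 had an unadjusted p under 0.05, 0 called by edgeR and 2 by DESeq2. The 8 spermatogonial markers summed to between 47.6 and 78.7 CPM against 39.7 and 50.4 CPM, with 4 at an unadjusted p under 0.05, 0 called by edgeR and 2 by DESeq2. All 7 Sertoli cell markers had lower values in the null, with sums from 80.4 to 141 CPM against 134 to 349 CPM, and 0 were called by either tool or had an unadjusted p under 0.05. Libraries also carry numbers whose meaning the labels do not give, and among those over 60 are wild-type replicate 5 and 2 of the 3 null libraries. Up to 60, where the null had 1 library, the log2 ratio of the null to the wild-type mean was -1.12 for Setdb1, -0.88 for Trim28, 0.97 for Suv39h2, -1.06 for Cbx1, -0.85 for Cbx5 and 1.48 for Ehmt1. Over 60, where the wild type had 1 library, it was 0.19, 0.01, 0.06, 0.01 and 0.04 for the first 5 of these and 0.86 for Ehmt1. With a library number over 60 as a term in the fit, edgeR called 0 of the 10 members, as without it, and 4 of 19450 genes in place of 8. A count that was 0 before cannot show what this term changes. The part of the cell makeup in the genotype differences was not tested.

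**Figure D4:**
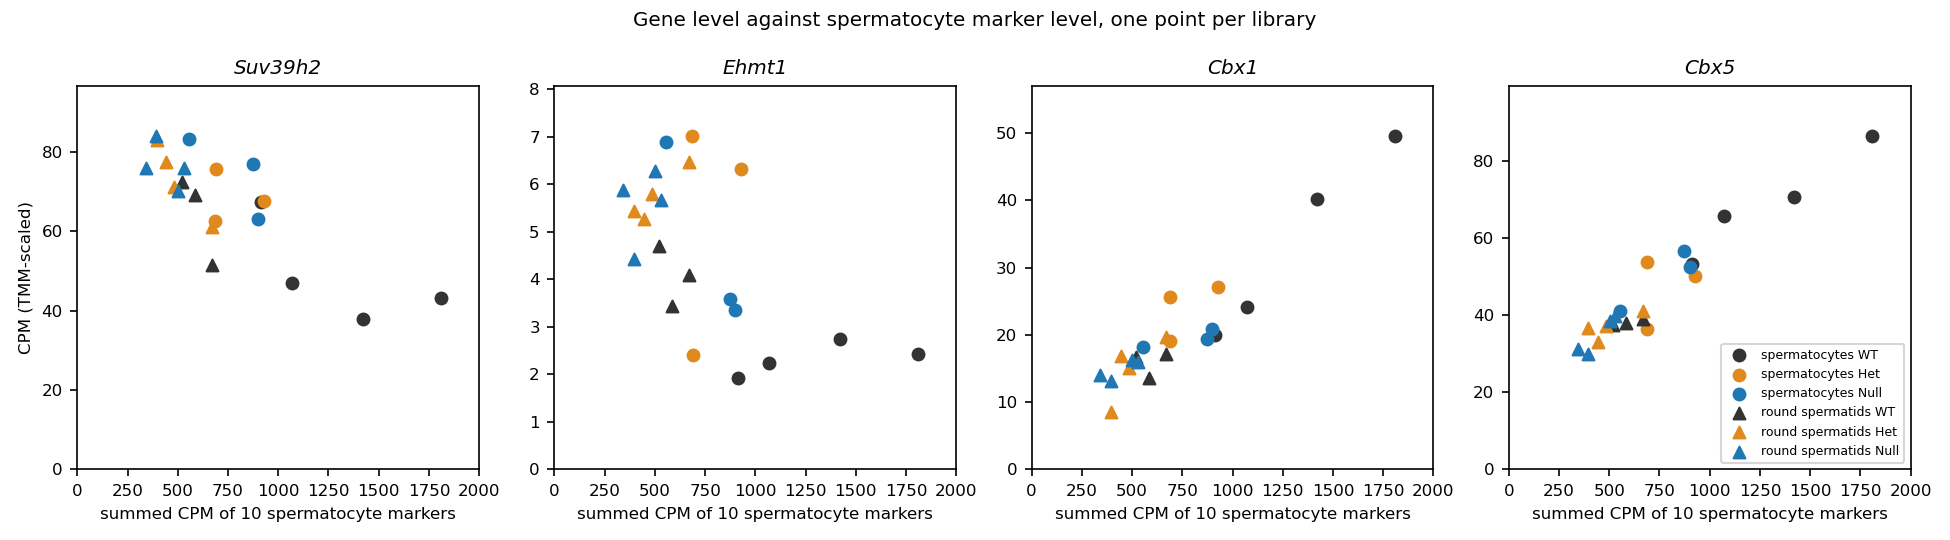
CPM of Suv39h2, Ehmt1, Cbx1 and Cbx5 (y axes) against the summed CPM of 10 spermatocyte markers (x axis), 1 point per library (circles, spermatocytes; triangles, round spermatids; colours, genotypes). Cbx1 and Cbx5 are highest in the libraries with most marker RNA, the wild-type spermatocytes at 1420 and 1810 CPM, and Suv39h2 is lowest there (37.9 and 43.2 CPM). Ehmt1 is lowest in wild-type spermatocyte replicate 5 (1.91 CPM, marker sum 912 CPM).

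**Figure D5:**
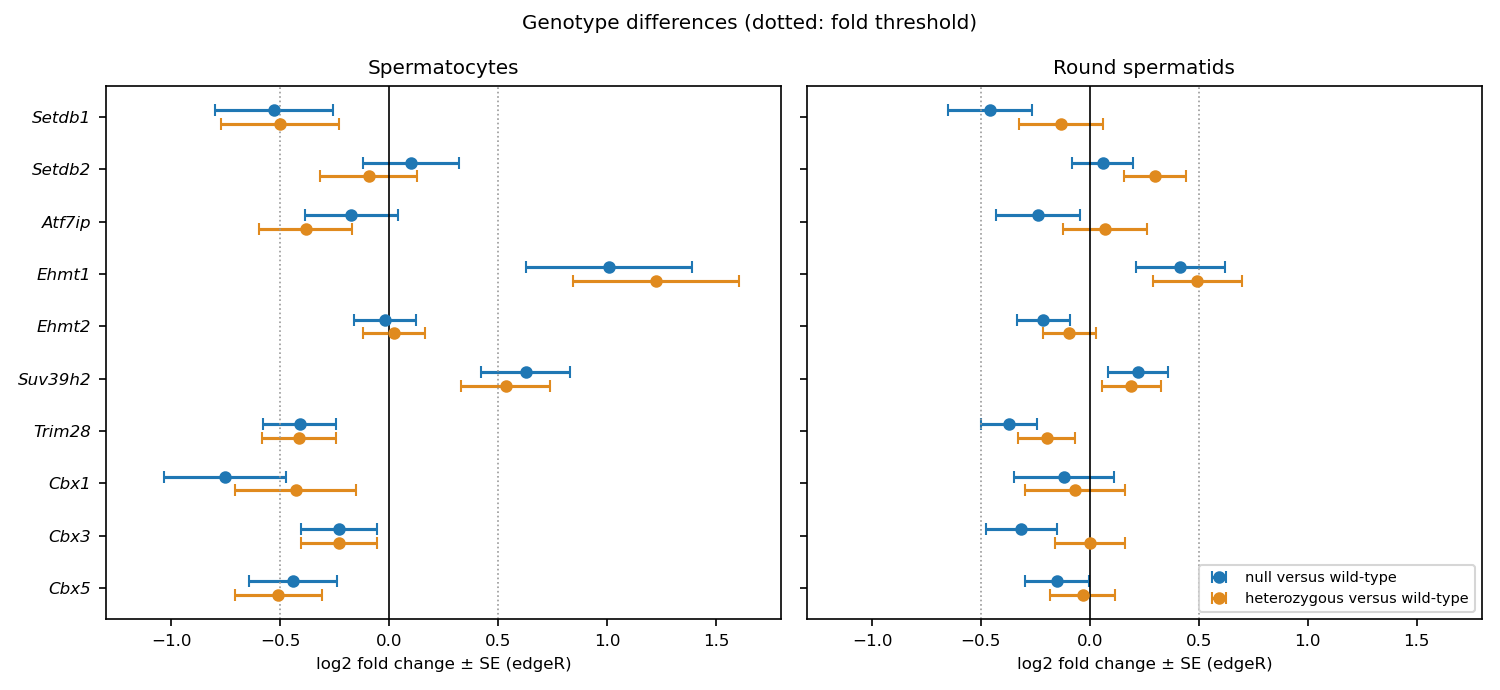
Log2 fold change with its SE (x axis) of each member in null and heterozygous against wild-type animals, spermatocytes left and round spermatids right; dotted lines mark the fold threshold, and edgeR called none of the points. Ehmt1 has the highest values in spermatocytes (1.01 in the null and 1.23 in heterozygotes).

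Null round spermatids were compared with wild-type ones in the same way. By edgeR and by DESeq2 0 of 10 members were called, against 0.0518% of 19310 genes by edgeR and 3.62% by DESeq2. At an unadjusted p under 0.05 there were 2 members by edgeR and 3 by DESeq2, against 19.3% and 20.3% of all genes. The median log2 fold change of the members was -0.18, beside 0.03 over all genes. Trim28 had 300, 346, 374 and 319 CPM in null replicates 1 to 4 and 475, 366 and 436 CPM in wild-type replicates 1, 2 and 4, which overlapped (log2 fold change -0.37 ± 0.13 SE, adjusted p = 0.15 by edgeR). Setdb1 had 28.6, 32.7, 44.9 and 35.0 CPM in the null and 54.6, 50.1 and 38.4 CPM in the wild type (log2 fold change -0.46 ± 0.19 SE, adjusted p = 0.215 by edgeR). Among libraries numbered up to 60 the log2 ratio of null to wild-type means was -0.77 for Setdb1 and -0.38 for Trim28, and among those over 60, where the wild type had 1 library, 0.06 and -0.33. Of the other cell types, macrophage markers were higher in the null for 9 of 10 genes, with sums from 51.8 to 85.7 CPM against 39.9 to 58.0 CPM in the wild type. By edgeR 0 of them were called and 6 had an unadjusted p under 0.05, and DESeq2 called 3. All 8 round spermatid markers had higher values in the null (sums from 3090 to 4000 CPM against 2790 to 3270 CPM), with 0 called by either tool and 3 at an unadjusted p under 0.05. The part of these cell types in the members' values was not tested.

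Cbx3 was the only member without overlap in round spermatids, against 18.7% of all genes. It had 22.9, 26.0, 26.3 and 25.9 CPM in the null and 28.2, 34.3 and 30.0 CPM in the wild type. The null libraries were all lower, and the log2 fold change was -0.31 ± 0.16 SE (adjusted p = 0.301 by edgeR). Ehmt1 again had a higher mean in the null, 5.57 ± 0.81 CPM (SD, n = 4) against 4.08 ± 0.63 CPM (SD, n = 3), a log2 fold change of 0.42 (unadjusted p = 0.0596 and adjusted p = 0.279 by edgeR). Its approximate 95% interval ran from 0.02 to 0.81, which is narrower than the edgeR test implies. Suv39h2 had a log2 fold change of 0.22, Ehmt2 of -0.21, Atf7ip of -0.24, Cbx5 of -0.15, Cbx1 of -0.12 and Setdb2 of 0.06, with adjusted p by edgeR from 0.35 to 0.848. The 95% interval of Cbx1, from -0.57 to 0.33, includes the fold threshold. In these libraries the spermatocyte markers summed to between 342 and 530 CPM in the null and between 520 and 670 CPM in the wild type, with 0 of 10 called by edgeR (3 at an unadjusted p under 0.05) and 1 by DESeq2.

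Heterozygous spermatocytes were compared with the same wild-type libraries as the null ones. Against these, edgeR called 0 of 10, beside 0.0257% of all genes, with 4 at an unadjusted p under 0.05, beside 24.6% of all genes, and DESeq2 called 1 of 10, beside 6.16% of all genes. This was Ehmt1, with 6.32, 7.02 and 2.40 CPM in heterozygotes against 1.91 to 2.75 CPM in the wild type. Heterozygous replicate 3 lay within the wild-type range and the other two far above it. The log2 fold change was 1.23 ± 0.38 SE (adjusted p = 0.125 by edgeR), and DESeq2 gave 1.23 with an adjusted p of 0.0375 (over 14 alternatives from 0.0271 to 0.329). Trim28 was lower in all heterozygous libraries (406, 385 and 323 CPM) than in any wild-type library (418 to 559 CPM), as was the case in either direction for 17.2% of all genes, with a log2 fold change of -0.41 ± 0.17 SE (adjusted p = 0.162 by edgeR). Suv39h2 had a log2 fold change of 0.53 and Cbx5 of -0.51, with adjusted p by edgeR of 0.151 and 0.156, and Suv39h2 was called without wild-type replicate 5 (0.74, adjusted p = 0.0229 by edgeR, over 14 alternatives from 0.0229 to 0.351), a fit in which 2966 of 19181 genes were called. The other log2 fold changes were -0.50 for Setdb1, -0.38 for Atf7ip, -0.09 for Setdb2, 0.02 for Ehmt2, -0.43 for Cbx1 and -0.23 for Cbx3. The spermatocyte markers summed to between 687 and 928 CPM in heterozygotes, lower than in 3 of the 4 wild-type libraries, and DESeq2 called 4 of the 10 lower, edgeR 0 (4 at an unadjusted p under 0.05). All 8 round spermatid markers had higher values in heterozygotes, with sums from 2320 to 4050 CPM against 1500 to 2480 CPM, 0 called by edgeR (8 at an unadjusted p under 0.05) and 4 by DESeq2. The 8 spermatogonial markers summed to between 69.0 and 91.8 CPM against 39.7 to 50.4 CPM, without overlap, with 1 called higher by edgeR and 4 by DESeq2. Leydig cell markers summed to between 6.03 and 22.8 CPM against 3.25 to 10.1 CPM, with 0 called by edgeR and 2 by DESeq2. The part of these cell types in the members' values was not tested.

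In heterozygous round spermatids edgeR and DESeq2 called 0 of 10 members against the wild type, beside 0.0207% of all genes by edgeR. At an unadjusted p under 0.05 there was 1 member by edgeR, Ehmt1, and 2 by DESeq2, Ehmt1 and Setdb2, against 8.88% and 9.84% of all genes. Ehmt1 had 5.27, 6.47, 5.80 and 5.43 CPM against 4.09, 4.71 and 3.44 CPM (log2 fold change 0.49 ± 0.20 SE, adjusted p = 0.551 by edgeR). Setdb2 had 13.6, 13, 13.8 and 13.9 CPM against 9.85, 11.5 and 11.9 CPM (log2 fold change 0.30 ± 0.14 SE, adjusted p = 0.564 by edgeR). For these 2 members all heterozygous libraries lay above all wild-type ones, and in either direction 9.63% of all genes had no overlap. The other log2 fold changes were -0.20 for Trim28, -0.13 for Setdb1, 0.07 for Atf7ip, 0.19 for Suv39h2, -0.09 for Ehmt2, -0.07 for Cbx1, 0.00 for Cbx3 and -0.03 for Cbx5. In these libraries 7 of 10 macrophage markers had higher values in heterozygotes, with sums from 38.8 to 92.5 CPM against 39.9 to 58.0 CPM, 0 called by edgeR (4 at an unadjusted p under 0.05) and 1 by DESeq2, and their part in the members' values was not tested. Between null and heterozygous libraries edgeR and DESeq2 called 0 of 10 members in spermatocytes (0.00514% of all genes by edgeR) and 0 of 10 in round spermatids (0.00518%), with 0 at an unadjusted p under 0.05 by either tool in either fraction (3.74% and 7.67% of all genes by edgeR). In spermatocytes the log2 fold changes of null against heterozygous libraries were 0.00 for Trim28, -0.03 for Setdb1, 0.21 for Atf7ip, 0.19 for Setdb2, 0.09 for Suv39h2, -0.22 for Ehmt1, -0.04 for Ehmt2, -0.33 for Cbx1, 0.00 for Cbx3 and 0.07 for Cbx5. In round spermatids they were -0.17 for Trim28, -0.33 for Setdb1, -0.31 for Atf7ip, -0.24 for Setdb2, 0.03 for Suv39h2, -0.08 for Ehmt1, -0.12 for Ehmt2, -0.05 for Cbx1, -0.32 for Cbx3 and -0.12 for Cbx5.

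Other genes of H3K9 methylation were taken as 3 lists. In null against wild-type animals edgeR called 0 of 15 partners of the methyltransferases, 0 of 11 H3K9 demethylases and 0 of 13 proteins that bind HP1 or H3K9 trimethylation, in either fraction. In spermatocytes 4, 3 and 2 of them had an unadjusted p under 0.05, against 30.4% of all genes, and in round spermatids 1, 3 and 2, against 19.3%. DESeq2 called 4 of these 39 genes higher in null spermatocytes, where it called 15.2% of all genes (8.94% higher), and 0 in null round spermatids. The 4 were Cdyl, a chromodomain corepressor that binds methylated H3K9 (edgeR log2 fold change 0.56 ± 0.18, SE), the demethylases Phf8 (0.88 ± 0.25, SE) and Kdm4a (0.66 ± 0.24, SE), and Lrif1, an HP1-binding protein (1.02 ± 0.34, SE), with adjusted p by edgeR from 0.0648 to 0.0981. Phf8, a gene on the X chromosome whose product removes dimethylation from H3K9, had 23.4 to 24.6 CPM in null and 11.6 to 15.0 CPM in wild-type spermatocytes, without overlap, as for 27.1% of all genes. Mphosph8, the HUSH subunit that binds H3K9 trimethylation, had a log2 fold change of -0.79 ± 0.26 SE (adjusted p = 0.0799 by edgeR) and Lbr, the lamin B receptor that holds heterochromatin at the nuclear envelope, one of -1.06 ± 0.41 SE (adjusted p = 0.114 by edgeR). Without wild-type replicate 5 edgeR called 6 of the 39 genes, Cdyl, Cdyl2, Lbr, Lrif1, Mphosph8 and Phf8, in the fit in which 23.6% of all genes were called. In null round spermatids the lowest p of each list were those of Cdyl (0.38) and Prdm2 (-0.32), of the demethylases Kdm4d (-0.40) and Phf8 (0.42), and of Uhrf1 (-0.49) and Chaf1a (-0.22), as log2 fold changes with adjusted p by edgeR from 0.112 to 0.303.

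Against the wild type, heterozygous animals had 0 genes of the 3 lists called by edgeR in either fraction. At an unadjusted p under 0.05 there were 5 partners, 4 demethylases and 3 HP1-binding proteins in spermatocytes, against 24.6% of all genes, and 0, 1 and 2 in round spermatids, against 8.88%. In heterozygous spermatocytes the partners with the lowest p were the HUSH subunit Pphln1 (1.10) and Cdyl2 (0.53), the demethylases Kdm4d (-0.59) and Kdm3a (-0.50), and the HP1-binding list had Lrif1 (0.89) and the H4K20 methyltransferase Kmt5c (0.48), as log2 fold changes with adjusted p by edgeR from 0.124 to 0.182. DESeq2 called Pphln1 and Kdm4d among them. Pphln1 had 122, 109 and 315 CPM in heterozygous spermatocyte replicates 1, 2 and 3 against 63.9 to 126 CPM in the wild type, so that its value rested on replicate 3, without which the log2 fold change was 0.44 (adjusted p = 0.234 by edgeR). Without the same library that of Lrif1 was 0.51. Without wild-type replicate 5 edgeR called 5 of the 39 genes, Cdyl2, Kdm3a, Kdm4d, Lrif1 and Pphln1, in the fit in which 2966 of 19181 genes were called. In heterozygous round spermatids they were Zfp644 (0.27), Wiz (0.24), Phf8 (0.42), Kdm4c (0.73), Lrif1 (0.71) and the H3.3 remodeller Atrx (1.17), with adjusted p by edgeR from 0.551 to 0.704. Between null and heterozygous animals and for the difference of the null effect between fractions, edgeR and DESeq2 called 0 genes of the 3 lists. In the first of these, 0 partners, 1 demethylase and 0 HP1-binding proteins had an unadjusted p under 0.05 in spermatocytes and 1, 2 and 0 in round spermatids (3.74% and 7.67% of all genes), and in the second 0 of each list (5.95% of all genes). The log2 fold changes with the lowest p were those of Zfp445 (0.34), Zfp809 (-0.31), Kdm4a (0.68), Kdm4d (0.23), Kmt5c (-0.32) and Chaf1a (-0.22) in null against heterozygous spermatocytes, and of Cdyl (0.35), Prdm2 (-0.30), Kdm4a (0.33), Kdm3a (-0.30), Adnp (-0.57) and Uhrf1 (-0.20) in round spermatids. For the difference between fractions they were Mbd1 (0.86), Suv39h1 (-0.65), Kdm4a (-0.42), Phf8 (-0.42), Lbr (0.94) and Adnp (-0.86).

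Between the wild-type fractions 24.2% of all genes were called (12.7% higher and 11.4% lower in round spermatids). Of the 15 partners 1 was called higher and 6 lower in round spermatids, a median log2 fold change of -0.35 beside 0.02 over all genes. Cdyl was the one called higher, from 116 ± 21 CPM (SD, n = 4) to 291 ± 21.4 CPM (SD, n = 3), a log2 fold change of 1.33 ± 0.18 SE (adjusted p = 0.000435 by edgeR). The largest decreases were those of the HUSH subunits Mphosph8 (-1.77 ± 0.37 SE, adjusted p = 0.0016 by edgeR) and Fam208a (-1.40 ± 0.28 SE, adjusted p = 0.00131 by edgeR), and of the zinc finger gene Zfp445 (-1.34 ± 0.33 SE, adjusted p = 0.00457 by edgeR). HUSH is a complex that spreads H3K9 trimethylation together with SETDB1, and Pphln1, its other subunit on the list, was not called (0.28 ± 0.28 SE, adjusted p = 0.504 by edgeR). The other 3 called lower were Mbd1, Atf7ip2 and Zfp644. The Mbd1 call held without spermatocyte replicate 2 or 5 and was lost without any other wild-type library. That of Zfp644 was lost without spermatocyte replicate 4 or round spermatid replicate 1. Of the 11 demethylases 2 were called higher, Kdm4b (0.99 ± 0.27, SE) and Phf8 (0.72 ± 0.21, SE), and 3 lower, Phf2 (-1.41 ± 0.49, SE), Jmjd1c (-1.27 ± 0.34, SE) and Kdm3a (-0.71 ± 0.16, SE), with adjusted p by edgeR from 0.00251 to 0.0384. The Phf2 call held without spermatocyte replicate 5 or round spermatid replicate 1 and was lost without any other wild-type library. Without spermatocyte replicate 4 the Jmjd1c call was lost, and without round spermatid replicate 1 that of Kdm4b. Kdm3a, which removes mono- and dimethylation from H3K9 and is needed for spermatid maturation, had 219 ± 36.1 CPM (SD, n = 4) in spermatocytes against 134 ± 11.4 CPM (SD, n = 3) in round spermatids. Of the 13 HP1-binding proteins 1 was called, Lbr, with a log2 fold change of -1.10 ± 0.34 SE (adjusted p = 0.0192 by edgeR). The Lbr call held without spermatocyte replicate 2 or 5 or round spermatid replicate 1. It was lost without any other wild-type library. Among null libraries, where 17.1% of all genes were called, 8 of the 39 genes were: Cdyl (1.20) and Kdm4b (1.00) were called higher and Mphosph8 (-1.25), Fam208a (-1.15), Zfp445 (-1.12), Atf7ip2 (-0.80), Kdm3a (-0.51) and Lrif1 (-1.27) lower in round spermatids, as log2 fold changes. With a null library left out, edgeR called from 2 (without spermatocyte replicate 3) to 9 of the 39. Only Cdyl and Atf7ip2 were called each time. Among heterozygous libraries, where 8.89% of all genes were called, 2 of the 39 were: Cdyl (0.96) was called higher and Mphosph8 (-1.31) lower. DESeq2 called 1 partner higher and 2 lower, and 2 demethylases higher. With a heterozygous library left out, edgeR called from 1 to 7 of the 39, Cdyl each time. The Mphosph8 call was lost without spermatocyte replicate 1 or 3 or round spermatid replicate 1 or 4.

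The genes whose levels ran most alike to each member over the 21 libraries were found by Pearson's r of log2 CPM, as a description of libraries that share 2 fractions and their makeup. Cbx5 was most like Myef2 (0.976), Ccp110 (0.974) and Ift80 (0.973), and Cbx1 most like Tardbp (0.954), Rbmxl1 (0.945) and 9930104L06Rik (0.944). Setdb1 ran with Urb1 (0.974), Khsrp (0.968) and Mdc1 (0.965), Trim28 with Lsg1 (0.977), Exoc8 (0.973) and Ranbp3 (0.969), and Atf7ip with Dnah8 (0.966), Wnk1 (0.958) and Rbm33 (0.954). Suv39h2 ran with Ttll7 (0.984), Azi2 (0.976) and Kat2b (0.970), Ehmt2 with Epn1 (0.959), Sec61a1 (0.957) and Agpat1 (0.952), and Ehmt1 with Pip5k1c (0.904), Map3k1 (0.902) and Mex3a (0.902). Setdb2 ran with Ehbp1 (0.881), Ap3b1 (0.844) and Smg1 (0.839), and Cbx3 with 1810013L24Rik (0.903), Zkscan2 (0.847) and Shisa3 (0.847). Among the members themselves the closest pairs were Setdb1 with Atf7ip (0.875), Trim28 with Setdb1 (0.853) and Cbx1 with Cbx5 (0.853), whereas Ehmt1 and Ehmt2 had an r of 0.358.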

How the data were processed

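Groups were taken from the labels of 24 bulk RNA-seq libraries. The authors deposited raw counts per gene: per the paper's methods, strand-specific poly(A) libraries were trimmed with TrimGalore and mapped with STAR, which also counted reads per gene (mm10 per the submitters' processing notes). Tool versions, annotation release and strand column are not given in the sources used here. All 55536 identifiers were found in GENCODE M21 (GRCm38), which gave symbols and exon lengths.

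Genes with 10 or more counts in 3 or more libraries were tested with edgeR 4.0.16 (R 4.3.3, TMM, quasi-likelihood, Benjamini-Hochberg), and DESeq2 1.42.0, the study's tool, was an alternative. Genotypes were fitted within each fraction, and fractions and their difference in 1 fit of 21 libraries, which also gave the CPM. So a fold change need not equal the ratio of printed means. Intervals are 1.96 SE on either side. Scripts were tested on simulated data. Floors allow 3 counts and cover counting error only, since reads carry no molecular identifiers. Over pairs of libraries of a group the chi-square per gene was 8.92 to 160, so no library was a repeat deposit. Alternatives were RLE size factors, no low-count filter, outliers added back, each library left out, library number over 60 as a term, only the compared groups and replicate blocks. Leaving out a library for the genes of the lists was chosen after the data were seen. Consecutive library numbers, 1 from each fraction, were taken to pair the wild-type and null libraries, since deviations from the group means had an r over 0.1 in all 3 pairs of each (0.123 to 0.307 and 0.209 to 0.300), but not the heterozygous ones (3 pairs, -0.14 to 0.207). The main fraction comparisons left this pairing out, and the block of consecutive library numbers was an alternative.

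All 10 members were named in every comparison. Of the lists, genes called in a genotype comparison or else the 2 with the lowest p were named, and of fraction calls up to 3 per direction, and further calls were named after their values were seen. The members and lists were chosen with earlier results of these data known.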

Additional observations from a re-analysis of the deposited data

Results flagged for a closer look

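Among 30 groups of 4 libraries (10 members in wild-type spermatocytes and in heterozygous and null round spermatids), 1 library stood apart from the others by Dixon's test. Null round spermatid replicate 1 had 22.9 CPM of Cbx3, while the other 3 null libraries had 25.9 to 26.3 CPM, a gap of 0.881 of the whole range. Chance flags about 1 in 20 groups, so a single flag is within what 30 groups would give.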

How the results depend on the processing

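For 41 results of a member in a comparison, 572 alternative values were computed: 527 kept the direction and the side of the threshold, 21 lost a call, 13 gained one and 11 changed direction. Those that changed direction were near 0. Ehmt2 in null against wild-type spermatocytes (-0.02) became 0.01 with DESeq2, 0.009 with RLE size factors, 0.010 with no low-count filter and 0.028 with only the compared groups, and ran from -0.093 to 0.036 with a library left out. Setdb2 in null against wild-type round spermatids (0.06) became -0.198 with the outliers added back and ran from -0.025 to 0.104 with a library left out, and between wild-type fractions (-0.18) it became 0.064 with the outliers added back. The cause was not tested.

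The count of members called in null against wild-type spermatocytes was 0, but 1 with DESeq2 (Suv39h2), 2 with no low-count filter (Suv39h2 and Cbx1) and 0 to 2 with a library left out. In heterozygous against wild-type spermatocytes it was 0, but 1 with DESeq2, 1 with no low-count filter (Ehmt1 in both) and 0 to 1 with a library left out. Between fractions it fell to 0 with the outliers added back, in wild-type animals (from 4, where 0 of all 20542 genes were called) and null ones (from 1, where 2275 were), rose from 0 to 1 in heterozygotes with no low-count filter (Cbx1), and with a library left out it was 3 in the wild type, 0 to 1 in heterozygotes (1 without spermatocyte replicate 2 or round spermatid replicate 2, Ehmt2 each time) and 0 to 1 in the null. Over all genes, calls in null against wild-type spermatocytes were 8 by edgeR, 2953 by DESeq2, 2623 of 34461 with no low-count filter and 4526 without wild-type replicate 5, in heterozygous against wild-type spermatocytes 5 by edgeR, 1199 by DESeq2 and 1481 with no low-count filter, and in null against wild-type round spermatids 10 and 699.

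With a replicate block of the title numbers the count of members called was 0 in each genotype comparison, as without it, but in null against wild-type spermatocytes 687 of 19450 genes were called in place of 8. A replicate block of consecutive library numbers gave 3 members in the wild-type fraction comparison, 0 in the heterozygous and 0 in the null one, where Cbx5 had -0.472, and 0 for the difference of the null effect. Deviations from the group means had an r over 0.1 in 4 of 17 pairs with a shared title number (from -0.242 to 0.168), which were not taken to pair the samples. Beside the lost calls of Ehmt1 in the wild type (0.79) and Cbx5 in the null, the block of consecutive library numbers changed no other call of a member.

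Without division by length the HP1 shares in wild-type spermatocytes were 23.5% for Cbx1 and 49.6% for Cbx5, and in wild-type round spermatids 18.7% for Cbx1, 36.4% for Cbx3 and 45.0% for Cbx5. With the longest protein-coding transcript, an alternative chosen after the data were seen, Cbx3 had 43.4% and 55.6% and Cbx5 17.2% and 14.8%.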

Other observations

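The 3 libraries that the labels name as outliers were in no main comparison. Scaled with all 24 libraries, wild-type spermatocyte replicate 3 had 14.4 CPM of Cbx1, 39.2 CPM of Cbx5, 71.2 CPM of Suv39h2, 4.62 CPM of Ehmt1 and 549 CPM of Ehmt2, and its spermatocyte markers summed to 544 CPM against 912 to 1810 CPM in the compared wild-type spermatocytes. Its Cbx1, Cbx5 and Suv39h2 were closer to the wild-type round spermatids than to most wild-type spermatocytes. Heterozygous spermatocyte replicate 4 had 98.1 CPM of Suv39h2, the highest of all 24 libraries, and 11.7 CPM of Cbx1. Wild-type round spermatid replicate 3 had 20.0 CPM of Setdb2, above the 8.43 to 15.6 CPM of the 21 compared libraries, and 48.5 CPM of Cbx5 against 37.4 to 39.0 CPM in the other wild-type round spermatids.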
